A study of Mus musculus with 16 samples.

Results

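The genes described here are 10 transcription factors that build and maintain the heart: Gata4, Gata6, Nkx2-5, Tbx5, Tbx20, Mef2a, Mef2c, Mef2d, Hand2 and Srf. They were taken by name after the Ensembl identifiers of the count table, without their version, had been matched to mouse symbols, and all 10 were found among the 48709 identifiers counted. Whole-tissue RNA was sequenced from the liver and the heart of 8 untreated female C57BL/6J mice aged 3 to 6 months. Of these, 4 were wild type (WT) and 4 carried the Msr quadruple knockout (QKO), in which the known methionine sulfoxide reductases, Msra, Msrb1, Msrb2 and Msrb3, were knocked out. The labels give neither the design of the alleles nor the litters, and each animal gave 1 liver and 1 heart library. The 16 libraries therefore form 4 groups of 4: WT heart, QKO heart, WT liver and QKO liver. The question posed by the design is whether RNA levels differ between the genotypes in either tissue, here for the regulators of cardiac genes.

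GATA4 and GATA6 are zinc finger proteins, NKX2-5 is a homeodomain protein, and TBX5 and TBX20 are T-box proteins. MEF2A, MEF2C and MEF2D and SRF are MADS box proteins, and HAND2 is a basic helix-loop-helix protein. These proteins bind together at the control regions of genes for contractile proteins, ion channels and natriuretic peptides, and several of them switch on one another's genes in the embryonic heart. Their activity also depends on partners: class IIa histone deacetylases hold MEF2 proteins silent until kinases such as CaMKII move them out of the nucleus, and myocardin-related factors carry the state of the actin cytoskeleton to SRF. Methionine sulfoxide reductases repair methionine that has been oxidised within a protein, and both CaMKII and actin are known to carry such methionines. RNA counts measure none of these protein states.

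SRF binds CArG boxes and MEF2 proteins bind an A/T-rich box, and both kinds of site occur near the start of a gene of the set. The sequences below are from the RefSeq promoter windows of GRCm38.p6, which hold 250 bases before and 50 bases after a start site. They show, in capitals, letter matches to motifs bound by products of genes of the set, not always of the gene printed. The positions are counted from the RefSeq start. The first is chr17:46556203-46556257 on the minus strand, 95 to 41 bases before the start of Srf, with 2 CArG boxes in capitals. The second is chr7:67372851-67372888 on the minus strand, across the start of Mef2a, with a MEF2 box in capitals. The third is chr8:57320796-57320826 on the plus strand, upstream of Hand2, with a GATA site in capitals that reads as AGATAA on the opposite strand.
Srf: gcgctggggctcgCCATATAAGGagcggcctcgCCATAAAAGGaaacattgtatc
Mef2a: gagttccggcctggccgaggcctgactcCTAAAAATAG
Hand2: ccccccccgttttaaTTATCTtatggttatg

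Windows were given for 7 of the 10 genes, 9 windows in all with 3 for Mef2c, and none for Gata4, Gata6 and Tbx5. Both strands were searched. A CArG box was present in 1.63% of all 32851 windows and, within this set, only in that of Srf, where the boxes start 82 and 62 bases before the start. A MEF2 box was present in 3.19% of all windows and, within the set, only in that of Mef2a. The other motifs searched were common. The GATA motif AGATAA was present in 11.2% of all windows and the T-box motif AGGTGT in 13.7% of them. The NK2 motif TNAAGTG was present in 11.5% and the E-box CATCTG in 17.2% of all windows. Within the set, the T-box motif was found in 1 window of Mef2c, the E-box in those of Hand2 and Mef2c, and the NK2 motif in none of the 9 windows. The GC box GGGCGG lay in 5 of the 9 windows, 1 each of Tbx20, Mef2c, Mef2d, Hand2 and Srf, and in 35.7% of all windows. The G and C content was 72.0% for Mef2d, 68.3% for Tbx20, 63.3% for Srf and 62.3% for Mef2a, above the median window at 52.7%, and 35.7% to 48.3% for the 3 windows of Mef2c, below it. A match describes the letters and shows no binding.

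Total counts ran from 37.9 to 72.6 M per library. In heart, loci of nuclear ribosomal RNA took 31.4% to 56.9% of the count of 6 libraries, 7.37% of that of WT heart 4 and 0.245% of that of QKO heart 4, and protein-coding genes had 9.21 to 28.2 M counts. The targeted genes were checked first. Msrb2 and Msrb3 were lower in every QKO library of both tissues, and in heart they fell by 6.40 ± 0.17 (SE) and 2.62 ± 0.07 on the log2 scale. Msra fell less in heart, by 0.52 ± 0.09 (edgeR quasi-likelihood test, adjusted p = 0.0263), and Msrb1 was higher in QKO heart by 0.48 ± 0.08 (adjusted p = 0.0337). These last calls held in 10 and 11 of 21 alternative analyses. In liver Msra stood at a log2 fold change of -0.72 ± 0.12 (adjusted p = 0.0867) and Msrb1 at -0.39 ± 0.18, and neither was called. With the alleles not given in the labels, counts of Msra and Msrb1 outside a deleted part cannot be told apart from intact transcripts. Among markers of heart muscle cells, 12 of 12 were counted, and their summed level was 13761 to 15153 CPM in WT heart and 16114 to 16873 in QKO heart. CPM are counts per 1 M counts after TMM scaling, which sets the typical gene level between the libraries of a tissue.

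In heart, none of the 10 factors differed between QKO and WT at an adjusted p of 0.05, against 28 of 16974 genes tested, or 0.165%. Of the 10, 4 were higher and 6 lower in QKO. Their median log2 fold change was -0.04, that of all genes tested was -0.0013, and 1 of the 10 had an unadjusted p below 0.05. Of all genes tested, 7.19% had an unadjusted p below 0.05. In each of the 10 the ranges of the 4 WT and the 4 QKO hearts overlapped. The share of all genes with such an overlap was not counted. The 95% intervals of the differences lay between a fall by 23.6% and a rise by 45.7%. All log2 fold changes below are QKO over WT with their standard error from edgeR.

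**Figure D1:**
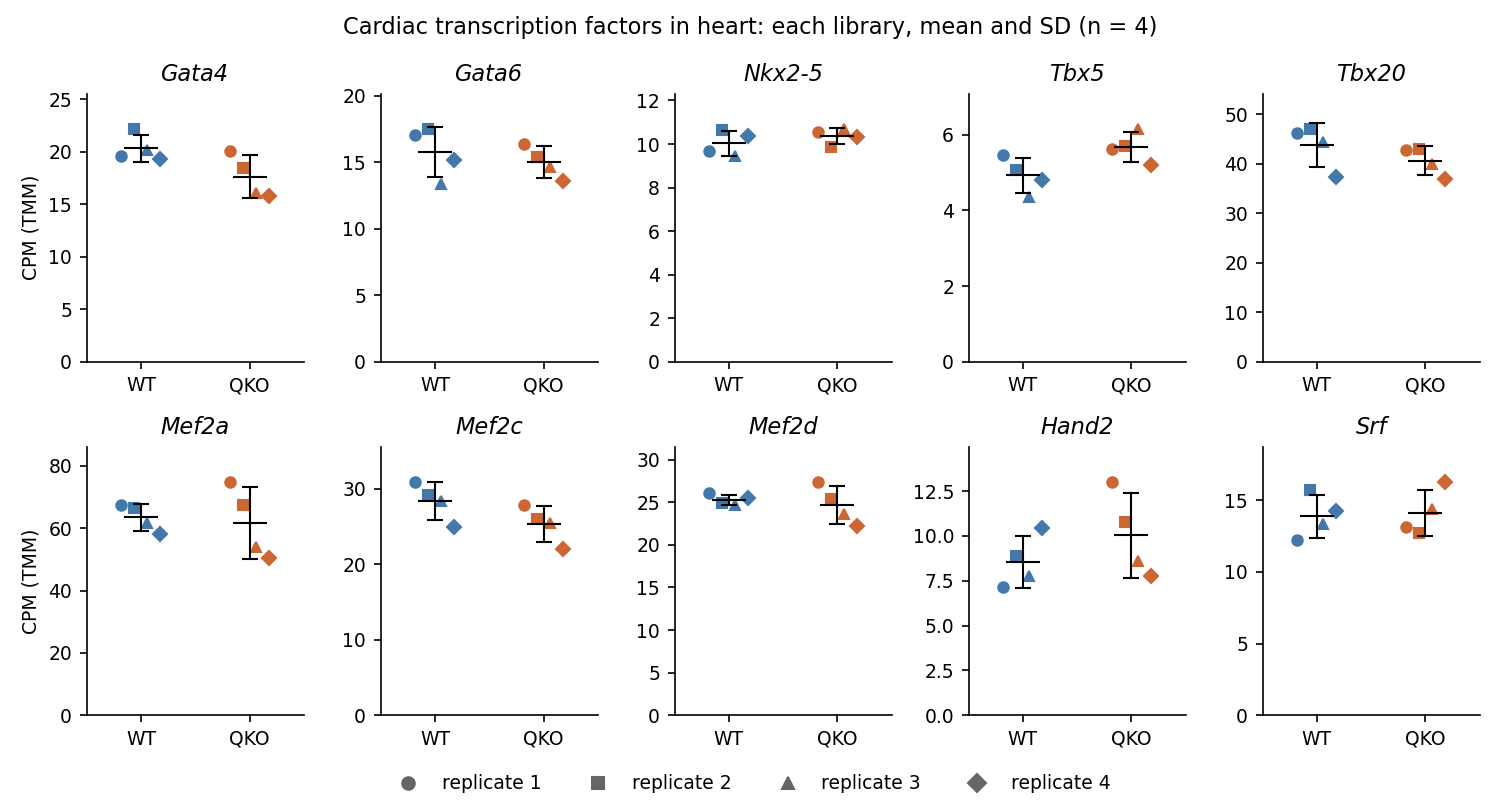
Level of each factor in heart in CPM after TMM scaling, on axes that start at 0. Points are single hearts (symbol by replicate number), and bars give the mean and SD of 4. WT and QKO points overlap in all 10 panels, and Hand2, Mef2a and Gata4 spread most in the QKO hearts.

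Gata4 lies on chromosome 14 (63198922 to 63271692, minus strand, mm10). It encodes the GATA factor of the adult heart muscle cell. It was at 19.6, 22.2, 20.2 and 19.3 CPM in WT hearts 1 to 4 and at 20.1, 18.5, 16.1 and 15.8 CPM in QKO hearts 1 to 4. QKO hearts 2 to 4 were below every WT heart, and QKO heart 1 lay within the WT range. The log2 fold change was -0.21 ± 0.08, an interval of -23.6% to -1.91%. This was the smallest p of the set, 0.0268, but the adjusted p was 0.660, and it ranked 676 by p among the genes tested. Gata6 (chromosome 18, 11052064 to 11085635, plus strand), which acts beside Gata4 in the growth response of the muscle cell, was at 17.0, 17.5, 13.4 and 15.2 CPM in WT and at 16.4, 15.4, 14.7 and 13.6 CPM in QKO. All 4 QKO hearts lay within the WT range, with a log2 fold change of -0.07 ± 0.09 (adjusted p = 0.877).

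Nkx2-5 (chromosome 17, 26838664 to 26845009, minus strand) had even levels in heart. It was at 9.69, 10.6, 9.44 and 10.4 CPM in WT hearts and at 10.6, 9.87, 10.7 and 10.3 CPM in QKO hearts. The log2 fold change was 0.05 ± 0.07, an interval of -7.02% to 14.7%. Tbx5 (chromosome 5, 119832668 to 119885219, plus strand) encodes the T-box factor of the atria, the left ventricle and the conduction system. It was at 5.47, 5.08, 4.36 and 4.81 CPM in WT and at 5.62, 5.70, 6.17 and 5.21 CPM in QKO. Of the QKO hearts, 3 were above every WT heart and QKO heart 4 was below WT heart 1, and the log2 fold change was 0.20 ± 0.10 (unadjusted p = 0.0627, adjusted p = 0.716). Tbx20 (chromosome 9, 24718138 to 24774303, minus strand), a T-box factor needed to keep the adult ventricle contracting, had 46.2, 47.1, 44.3 and 37.4 CPM in WT. In QKO it had 42.9, 43.0, 40.0 and 36.9 CPM, a log2 fold change of -0.11 ± 0.08 (adjusted p = 0.794).

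The 3 MEF2 genes relay calcium signals and stress to metabolic and contractile genes. Mef2a (chromosome 7, 67231163 to 67372858, minus strand) had the highest CPM of the set, 67.4, 66.4, 61.7 and 58.3 in WT hearts and 74.9, 67.5, 54.1 and 50.4 in QKO hearts. QKO hearts 1 and 2 were above every WT heart and QKO hearts 3 and 4 below every WT heart, so the group means differed little, by -0.04 ± 0.11 on the log2 scale. Mef2c (chromosome 13, 83504034 to 83667080, plus strand) was at 30.9, 29.2, 28.4 and 25.0 CPM in WT and at 27.9, 26.0, 25.5 and 22.0 CPM in QKO, a log2 fold change of -0.16 ± 0.08 (unadjusted p = 0.0722, adjusted p = 0.728). Mef2d (chromosome 3, 88142372 to 88172086, plus strand) was at 26.1, 25.0, 24.6 and 25.5 CPM in WT and at 27.4, 25.4, 23.6 and 22.2 CPM in QKO, a log2 fold change of -0.04 ± 0.07. In both genotypes heart 4 had the lowest Mef2a, Mef2c and Tbx20, and these are the hearts with the least ribosomal RNA. Without both hearts numbered 4, Mef2c stood at -0.16, Tbx20 at -0.13 and Mef2a at 0.01.

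Hand2 (chromosome 8, 57320983 to 57324633, plus strand), a factor of the embryonic right ventricle, had the widest spread of the set. It was at 7.12, 8.89, 7.75 and 10.5 CPM in WT hearts and at 13.02, 10.8, 8.59 and 7.75 CPM in QKO hearts. QKO hearts 1 and 2 were above every WT heart, and QKO hearts 3 and 4 lay within the WT range. The log2 fold change was 0.21 ± 0.16, an interval of -8.42% to 45.7% (adjusted p = 0.792). With single hearts left out it ran from 0.061, without QKO heart 1, to 0.33. The animal numbers in the labels begin with 47 in replicates 1 and 2 and with 48 in replicates 3 and 4, and what the prefix stands for is not stated. Between the 2 WT and 2 QKO hearts of series 47 the log2 fold change was 0.59 (adjusted p = 0.0524), between those of series 48 it was -0.18 (adjusted p = 0.742), and without both hearts numbered 4 it was 0.45 (adjusted p = 0.425). Srf (chromosome 17, 46548329 to 46556175, minus strand), which drives actin and immediate early genes, was at 12.2, 15.7, 13.4 and 14.3 CPM in WT and at 13.1, 12.7, 14.4 and 16.3 CPM in QKO. The 2 ranges overlapped over most of their length, and the log2 fold change was 0.03 ± 0.09 (adjusted p = 0.950).

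In liver, 8 of the 10 factors had enough counts for a test and none passed it, against 15 of 17738 genes tested, or 0.0846%. Of the 8, 5 were higher and 3 lower in QKO, with a median log2 fold change of 0.11 against -0.01 over all genes tested. None of the 8 had an unadjusted p below 0.05, against 3.29% of all genes tested. The intervals were wider than in heart, from -37.9% to 95.3%. All adjusted p-values of the 8 were 0.9997 by edgeR.

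Gata4, in the adult liver best known as a factor of the sinusoidal endothelium, was at 4.74, 5.91, 9.19 and 7.48 CPM in WT livers 1 to 4 and at 8.27, 6.63, 11.9 and 10.7 CPM in QKO livers. The groups overlapped as a whole, while within each animal series both QKO livers were above both WT livers. The log2 fold change was 0.45 ± 0.23 (unadjusted p = 0.0780), an interval of -4.05% to 95.3%. Among the livers of series 47 it was 0.48 and among those of series 48 it was 0.45. Gata4 was not called in either series, with adjusted p of 0.758 and 0.980. With the series as a term over all 8 livers the log2 fold change was 0.46 and the unadjusted p 0.00917, and in the fit of 16 libraries they were 0.46 and 0.0220. The edgeR adjusted p over all genes was 0.9995 and 0.617, so neither analysis called it. The summed level of 6 sinusoidal endothelial markers was 224 to 299 CPM in WT and 269 to 389 CPM in QKO livers. The part of cell composition in the Gata4 values was not tested. In whole tissue, fewer cells of a type and less RNA per cell cannot be told apart.

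Mef2c in liver was at 4.21, 4.00, 6.83 and 8.85 CPM in WT and at 4.92, 5.05, 5.47 and 6.03 CPM in QKO, and Mef2d at 4.80, 5.25, 6.74 and 8.98 CPM in WT and at 7.21, 8.98, 7.22 and 6.59 CPM in QKO. WT liver 4 was the highest of the WT livers for both genes. WT livers 3 and 4 also stood apart in their content. The summed level of 8 pancreatic acinar markers was 742 and 220 CPM in them against 4.21 to 8.45 CPM in the other 6 livers, and that of 12 skeletal muscle markers was 322 CPM in WT liver 4 against at most 25.4 CPM elsewhere. The log2 fold change of Mef2c was -0.15 ± 0.24 with all livers and 0.39 without WT livers 3 and 4. That of Mef2d was 0.22 ± 0.21 with all livers and 0.58 without WT livers 3 and 4, and that of Gata4 was 0.82 without them, with adjusted p of 0.721 or more for these 3 genes. Of the 8 factors, 7 were higher and 1 lower without them, with a median of 0.23 and 0 called. WT livers 3 and 4 are the only WT livers of series 48. Every comparison without them, here and below, sets WT livers of series 47 alone against QKO livers of both series. Genotype and series are therefore partly mixed in it.

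For the remaining factors the WT and the QKO livers overlapped. Mef2a, the most abundant of them there in CPM, ran from 22.2 to 27.7 CPM in WT and from 23.5 to 32.2 CPM in QKO, with a log2 fold change of 0.09 ± 0.14. Srf ran from 4.52 to 7.16 CPM in WT and from 5.90 to 7.31 CPM in QKO (0.13 ± 0.17). Gata6 ran from 3.39 to 4.41 CPM in WT and from 3.22 to 4.26 CPM in QKO (-0.02 ± 0.17). Tbx20 ran from 2.74 to 3.29 CPM in WT and from 2.23 to 4.32 CPM in QKO (-0.03 ± 0.22), and Hand2 from 2.15 to 3.36 CPM in WT and from 2.99 to 3.41 CPM in QKO (0.13 ± 0.19). Nkx2-5 had counts in WT liver 4 (3 counts) and QKO liver 4 (1 count) and 0 in the other 6 livers. Tbx5 had 1 count in WT liver 3 and 0 in the other 7.

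**Figure D2:**
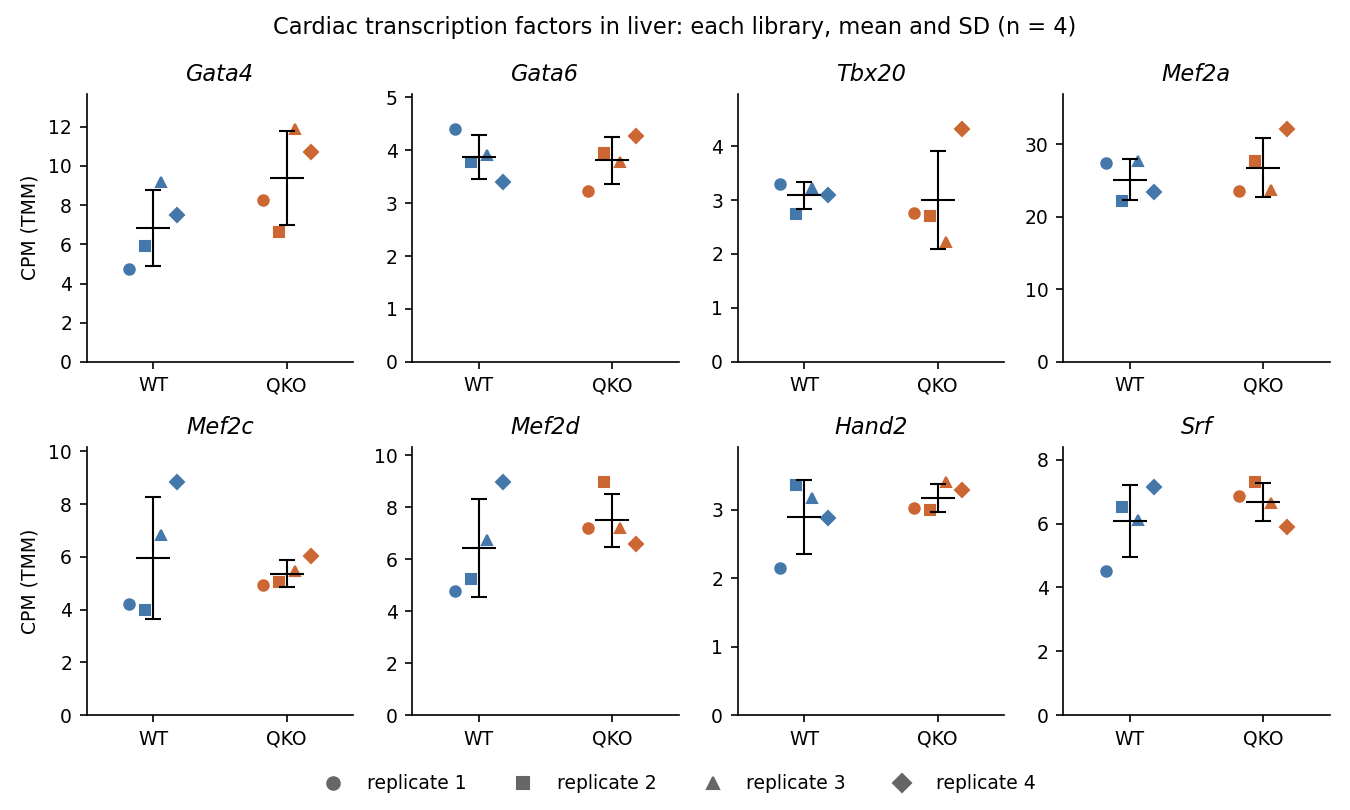
Level in liver in CPM after TMM scaling of the 8 factors that could be tested, on axes that start at 0. Points are single livers (symbol by replicate number), and bars give the mean and SD of 4. WT livers 3 and 4 have the highest Mef2c, and QKO livers 3 and 4 the highest Gata4.

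**Figure D3:**
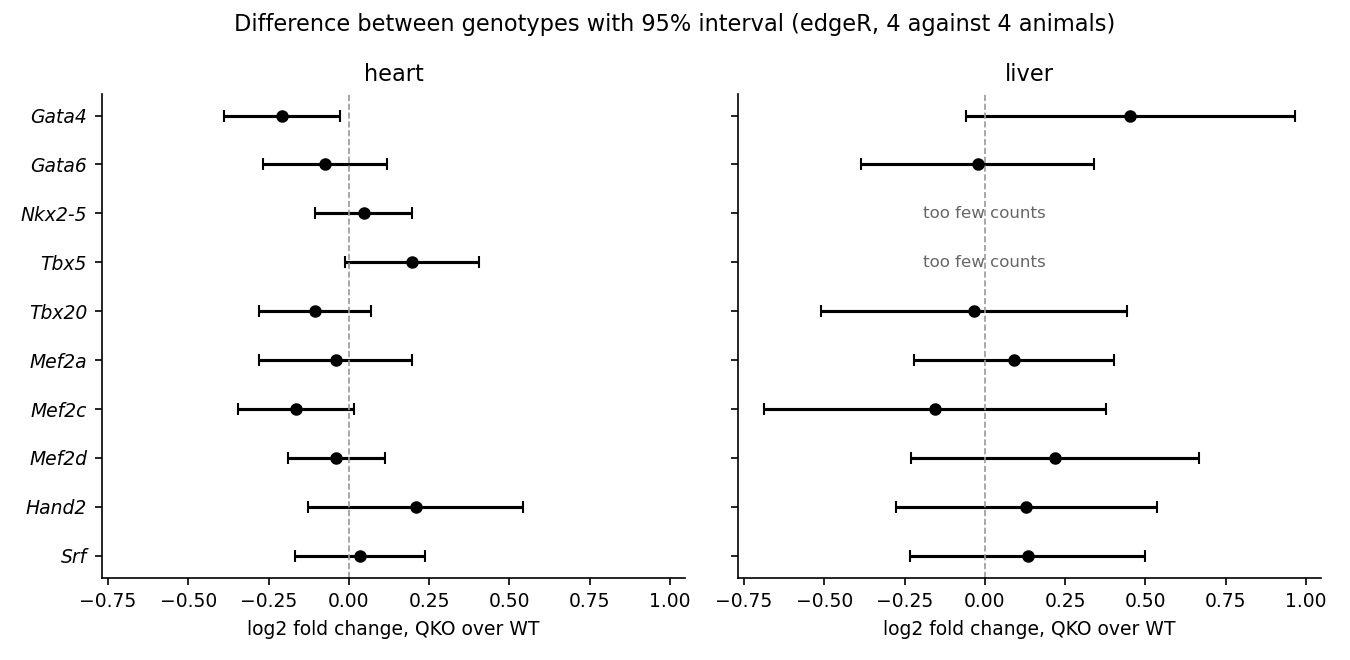
Log2 fold change of QKO over WT with its 95% interval for each factor in heart (left) and liver (right). The intervals reach from -0.39 to 0.54 in heart and from -0.69 to 0.97 in liver, and in heart that of Gata4 lies below 0 without passing adjustment over all genes.

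Whether the genotype difference itself differed between the tissues was tested as an interaction over the 16 libraries. Nkx2-5 and Tbx5 had too few liver counts for this comparison and are left out of it. None of the other 8 factors passed, against 1 of 19587 genes, or 0.00511% (784 genes had an unadjusted p below 0.05). Gata4, lower in QKO heart and higher in QKO liver by its means, had the smallest p of the 8. Its interaction was -0.66 ± 0.25 on the log2 scale (unadjusted p = 0.0180, edgeR adjusted p = 0.9999).

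The 8 factors that could be tested in both tissues were higher in heart than in liver, in WT and in QKO animals alike (edgeR quasi-likelihood test, adjusted p of 6.67e-08 or less). Of all 19587 genes tested, 35.5% were higher in WT heart than in WT liver and 36.2% were higher in QKO heart than in QKO liver. The levels below are CPM scaled over all 16 libraries. Tbx20 rose from 2.25 ± 0.17 (SD, n = 4) in WT liver to 59.8 ± 6.2 in WT heart, a log2 difference of 4.73 ± 0.17 (SE), and in QKO animals the difference was 4.65 ± 0.17. The other 7 of these factors differed by 2.09 ± 0.14 (Srf) to 3.15 ± 0.20 (Mef2c) in WT and by 1.81 ± 0.18 (Gata4) to 3.13 ± 0.20 (Mef2c) in QKO. Gata4 itself differed by 2.47 ± 0.19 in WT, from 4.97 ± 1.36 CPM in liver to 27.8 ± 1.9 CPM in heart, and in QKO from 6.88 ± 1.71 to 24.1 ± 2.8 CPM.

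Nkx2-5 and Tbx5 had enough counts for a test through the hearts alone, so their counts are given with no test. Nkx2-5 had 2518 counts in the WT hearts together and 3 in the WT livers, a ratio of 1369 (95% exact interval 468 to 6642), and 2655 against 1 in QKO, a ratio of 4326 (776 to 170946). Tbx5 had 1227 counts in WT hearts and 1 in WT livers, a ratio of 2001 (358 to 79098). In QKO it had 1423 counts in heart and 0 in liver, so that heart was at least 773-fold higher, with the floor set at 3 counts over the group. The ratios allow for depth, and these intervals cover counting error only. Without WT animal 4, Nkx2-5 had 1272 counts in WT hearts and 0 in WT livers, so that heart was at least 1045-fold higher, and without QKO animal 4 it was at least 1038-fold higher in QKO. Without WT animal 3, Tbx5 was at least 469-fold higher in WT heart. The liver that held all 3 WT counts of Nkx2-5, WT liver 4, also had the most heart muscle markers, 61.3 CPM against 13.5 to 38.6 CPM in the other livers. It had 322 CPM of skeletal muscle markers as well, and the source of these counts was not tested.

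**Figure D4:**
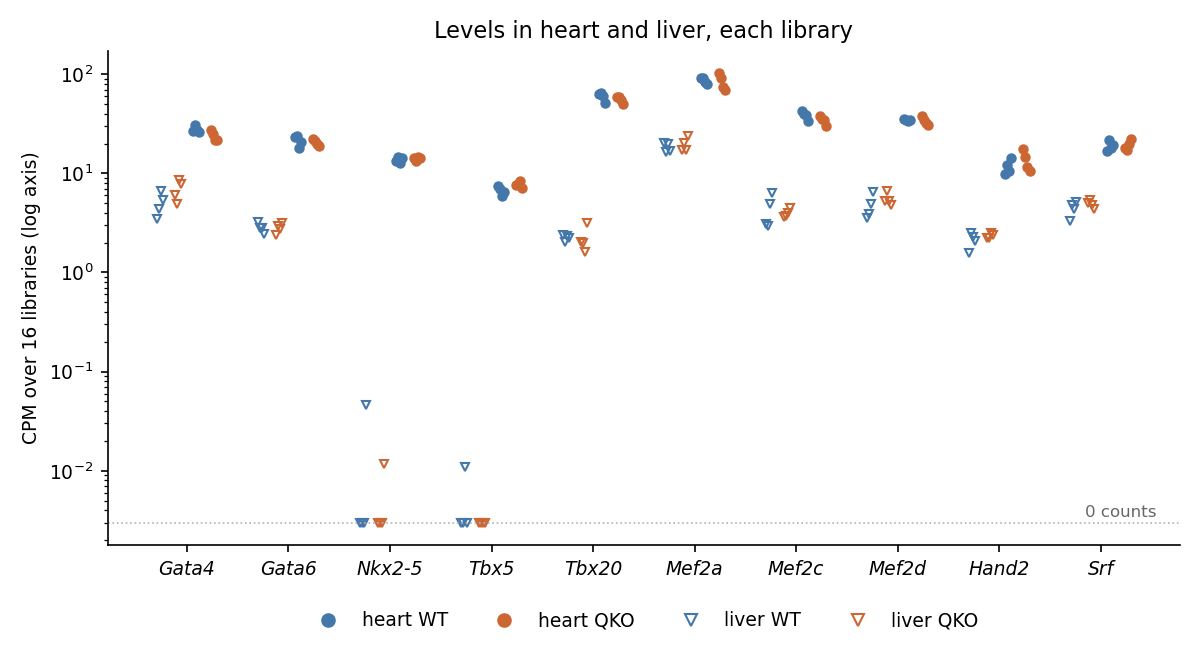
Level of each factor in every library in CPM scaled over the 16 libraries, on a log axis. Filled circles are hearts and open triangles livers, and libraries with 0 counts are drawn on the dotted line. Hearts lie above livers for all 10 genes, with the widest gap for Nkx2-5 and Tbx5.

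Levels can be set between genes only per length of transcript. Per kb of merged exons, the order in WT heart was Nkx2-5 (7.98 ± 0.46 CPM per kb), Gata4 (7.11 ± 0.48), Srf (6.56 ± 0.71), Mef2a (5.90 ± 0.42), Mef2d (5.77 ± 0.15), Tbx20 (4.99 ± 0.51), Hand2 (4.97 ± 0.84), Gata6 (3.31 ± 0.41), Mef2c (2.47 ± 0.23) and Tbx5 (1.44 ± 0.14), each as mean and SD over 4 hearts. The 5 genes from Nkx2-5 to Mef2d formed a chain in which each overlapped the next, as did Tbx20 with Hand2. Hand2, from 4.15 to 6.05 CPM per kb, also overlapped Mef2d, Mef2a and Srf further up the order. Gata6, Mef2c and Tbx5 were each apart from their neighbours. The order depends on the length used. Per kb of the longest coding transcript Mef2a came first in WT heart at 15.7 ± 1.1 CPM per kb, since its merged exons span 14681 bases and this transcript 5538. Tbx5 came last in heart by both lengths, in WT and in QKO. In WT liver, per kb of merged exons, Srf (1.53 ± 0.28), Gata4 (1.27 ± 0.35) and Mef2a (1.25 ± 0.13) led and overlapped.

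Shares within a family do not depend on the scaling of a library, but they do depend on the length taken for each gene. Of the sum of the 3 MEF2 genes per kb of merged exons, Mef2a made 41.7% ± 1.0 (SD, n = 4) in WT heart and 42.1% ± 2.4 in QKO heart, Mef2d 40.9% ± 1.7 and 41.6% ± 1.7, and Mef2c 17.4% ± 0.8 and 16.3% ± 0.9. In liver Mef2a made 54.7% ± 8.3 in WT and 53.2% ± 4.3 in QKO. Gata4 made 68.3% ± 2.4 of the sum of Gata4 and Gata6 in WT heart and 66.1% ± 1.1 in QKO heart, and 73.7% ± 7.1 in WT liver and 79.9% ± 4.4 in QKO liver. Per kb of the longest coding transcript, Mef2a was at 15.7, Mef2d at 6.39 and Mef2c at 6.18 CPM per kb in WT heart. By that length Mef2a and Mef2d were not near each other. Gata4 was at 8.17 and Gata6 at 6.67 CPM per kb there. Of 8 shares compared by two-sided exact permutation over the 70 relabellings, the smallest p was 0.114 for the Mef2c share in heart, 0.457 after Benjamini-Hochberg adjustment. The smallest p the design allows is 0.0286, or 0.229 after adjustment for a single share, so a difference in 1 share alone could not have passed.

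The genes around the factors were taken from lists. Of 19 relatives of the same families, 7 had enough counts for a test in heart and 6 in liver, with 0 called in either tissue. The 2 with the smallest p in heart were Tbx6, a T-box factor of the embryonic mesoderm, at 0.25 ± 0.07 CPM in WT and 0.18 ± 0.07 CPM in QKO, and Mga, which joins a T-box to a MAX-binding domain, at 30.7 ± 1.6 and 29.5 ± 1.0 CPM. In liver they were Tbx6 (0.50 ± 0.41) and Nkx2-6 (-0.62 ± 0.67), as log2 fold changes. Of 17 other heart factors 15 were tested in heart, with 8 higher, 7 lower and 0 called. Klf15, a repressor of growth in heart muscle, stood at 11.3 ± 0.7 CPM in WT and 13.4 ± 2.0 CPM in QKO (log2 0.25 ± 0.10, adjusted p = 0.660), and the homeodomain factor Meis1 at 6.42 ± 0.68 and 5.52 ± 0.52 CPM (log2 -0.22 ± 0.10, adjusted p = 0.692). In liver 13 were tested, with 4 higher, 9 lower and 0 called. Irx3 there was near 0 in both groups (0.22 ± 0.10 and 0.48 ± 0.36 CPM), and Esrra was at 20.3 ± 4.5 and 24.2 ± 5.8 CPM.

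Cofactors of the set include the class IIa deacetylases Hdac4, Hdac5, Hdac7 and Hdac9, the myocardin family and the GATA partners Zfpm1 and Zfpm2. All 13 were tested in heart, with 10 higher, 3 lower and 0 called, a median log2 fold change of 0.05. Smarcd3, the chromatin remodelling subunit known as BAF60C that works with GATA4, NKX2-5 and TBX5, was at 8.93 ± 0.45 CPM in WT and 10.4 ± 0.5 CPM in QKO. All 4 of its QKO hearts, from 9.85 to 10.9 CPM, were above the 4 WT hearts, from 8.26 to 9.20 CPM, yet its adjusted p was 0.578. Fhl2, a LIM protein that binds SRF, was at 402 ± 39 and 474 ± 37 CPM (adjusted p = 0.660), and its groups did not overlap either. Both genes were named for the smallest p of the list, and the share of all genes without overlap was not counted. In liver 12 cofactors were tested, 7 higher and 5 lower, with 0 called. The smallest p there were those of Hopx (log2 0.42 ± 0.23) and Hdac9 (log2 -0.43 ± 0.25).

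Of 30 genes known as targets of these factors in heart muscle, 1 passed in QKO heart. Myh7, the slow beta myosin heavy chain, which in the adult mouse heart is largely replaced by Myh6, rose from 107 ± 15 CPM in WT (92.4 to 123) to 507 ± 30 CPM in QKO (490 to 553). Its log2 fold change was 2.24 ± 0.10 (adjusted p = 3.23e-08). The call held in 20 of 21 alternatives, and was lost (adjusted p = 1.0) where hearts and livers shared 1 estimate of the spread. Mhrt lies across Myh7 on the opposite strand, and the strand setting of the counting is not stated. Reads from any exon bases that this pair shares therefore cannot be told apart. Of the 30 targets, 26 were higher and 4 lower in QKO heart, with a median log2 fold change of 0.12. Of all genes tested in heart, 49.6% were higher in QKO. The summed level of the heart muscle markers, of which several are among these targets, also did not overlap between the genotypes (12 of 12 markers higher, median 0.13). Its largest part was Myh6, at 4783 ± 313 CPM in WT and 5940 ± 393 CPM in QKO. The log2 fold changes of the 12 markers ran from 0.01 (Myom2) to 0.60 (Nppa), and 0 of them were called. The share of all genes with such a gap was not counted. The summed level of 7 macrophage markers, listed for the macrophages of the liver, was 22.7 to 28.5 CPM in WT and 17.7 to 21.3 CPM in QKO hearts. Most of it was Csf1r (17.5 ± 2.0 and 12.7 ± 1.3 CPM), and Clec4f, Vsig4 and Cd5l averaged 0.48 CPM or less. All 7 were lower in QKO heart, as were all 10 hepatocyte markers, with 0 called. The part of tissue composition in the targets' levels was not tested.

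In liver 26 of these targets were tested, 7 higher and 19 lower, with 0 called and a median log2 fold change of -0.31. The 2 with the smallest p were the muscle genes Mb and Ckm, at 14.2 ± 24.4 and 15.9 ± 31.1 CPM in WT livers and at 3.14 ± 1.32 and 1.70 ± 1.90 CPM in QKO livers. Their highest values, 50.8 and 62.5 CPM, were in a WT liver, and WT liver 4 had the highest summed level of skeletal muscle markers. Without WT livers 3 and 4, 27 targets were tested, 16 higher and 11 lower, with a median of 0.12.

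Of 30 SRF targets 27 were tested in heart, with 16 higher, 11 lower and 0 called. Myh11, the smooth muscle myosin, was at 4.61 ± 1.53 CPM in WT (2.92 to 6.53) and 2.18 ± 0.25 CPM in QKO (1.90 to 2.48), a log2 fold change of -1.07 ± 0.21 (adjusted p = 0.0836). Acta1, the skeletal actin of the fetal heart programme, was at 26.9 ± 11.04 CPM in WT (19.2 to 42.8) and 54.8 ± 20.5 CPM in QKO (38.6 to 84.0), a log2 fold change of 1.04 ± 0.26 (adjusted p = 0.314). The summed level of 12 skeletal muscle markers was 392 to 447 CPM in WT and 468 to 595 CPM in QKO hearts. Nearly all of it was Ckm (391 ± 33 and 470 ± 35 CPM) and Acta1, the only 2 with enough counts for a test. The other markers averaged 0.20 CPM or less in either genotype, so this sum restates Ckm and Acta1. The summed level of 10 smooth muscle and pericyte markers, Myh11 among them, was 403 to 466 CPM in WT and 439 to 477 CPM in QKO hearts. Most of it came from Rgs5 (184 ± 14 and 197 ± 8 CPM) and Abcc9 (165 ± 17 and 179 ± 15 CPM). Of the 10 markers, 5 were higher and 5 lower in QKO. Acta2 (log2 0.82 ± 0.30) was among the higher, and Tagln (-0.39 ± 0.33) and Cnn1 (-0.74 ± 0.39) among the lower. The part of cell content in the levels of Myh11, Acta1 and the other SRF targets was not tested. In liver 27 SRF targets were tested, 12 higher, 15 lower and 0 called. Without WT livers 3 and 4 there were 18 higher and 9 lower. Fos, an immediate early gene, had a log2 fold change of 0.93 ± 0.44 and Tpm1, a tropomyosin, of -0.63 ± 0.34.

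All 12 MEF2 targets were tested in both tissues and 0 were called. In heart 9 were higher and 3 lower, with a median of 0.10. Ckm, the muscle creatine kinase, was at 391 ± 33 and 470 ± 35 CPM (log2 0.27 ± 0.09, adjusted p = 0.617), and Srpk3, a muscle kinase gene under MEF2, at 5.77 ± 0.51 and 6.60 ± 0.52 CPM (log2 0.20 ± 0.09, adjusted p = 0.698). In liver 4 were higher and 8 lower, with a median of -0.41. Without WT livers 3 and 4, 7 were higher and 5 lower, with a median of 0.31, so that its sign rests on these livers, of which WT liver 4 held the 322 CPM of skeletal muscle markers. Ckm belongs both to these targets and to those markers. Nr4a1, an orphan nuclear receptor gene induced through MEF2, was at 0.36 ± 0.10 CPM in WT (0.28 to 0.49) and 1.61 ± 1.49 CPM in QKO (0.72 to 3.82). All QKO livers were above all WT livers, with a log2 fold change of 2.14 ± 0.54 (unadjusted p = 0.00208, adjusted p = 0.666). The share of all genes with such a gap was not counted. Stac3, a gene of muscle excitation, was near 0 in both groups (log2 -1.33 ± 0.57).

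**Figure D5:**
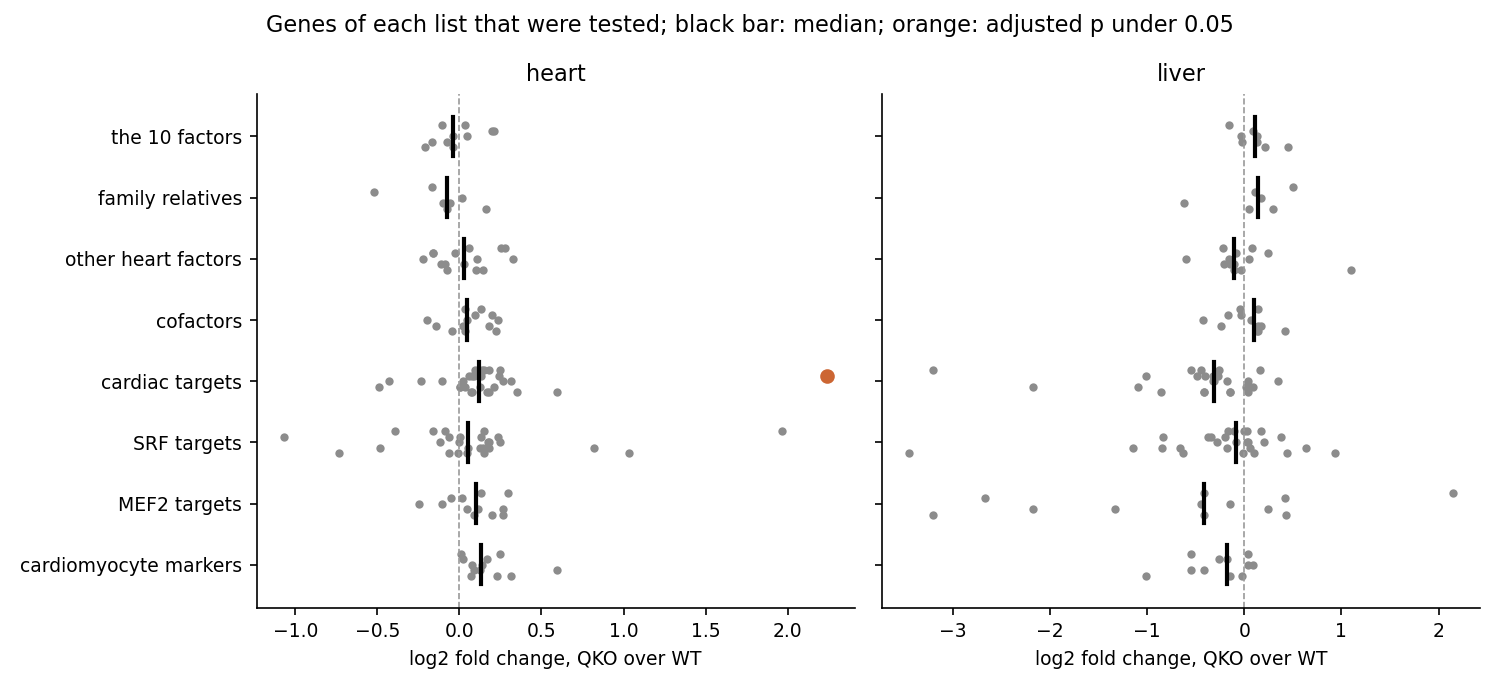
Log2 fold change of QKO over WT for every tested gene of the factors, their relatives, cofactors and targets and the heart muscle markers, in heart (left) and liver (right). Each point is a gene, the black bar is the median of the list, and orange marks an adjusted p under 0.05. The only such gene is Myh7 at 2.24 in heart, and the heart list medians run from -0.07 to 0.13.

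Of the 10 factors, 3 share a chromosome with a targeted Msr gene. Gata4 lies 0.851 Mb from Msra on chromosome 14, with 5 genes tested in heart and 7 in liver between them, of which 0 were called. Nkx2-5 lies 2.10 Mb from Msrb1 on chromosome 17, with 65 and 67 tested genes between them and 0 called. Srf lies 21.8 Mb from Msrb1, with 347 and 379 tested genes between and 1 called in each tissue, the complement gene C4b in heart (log2 -1.20, adjusted p = 0.0468) and H2-T3, a nonclassical MHC class I gene, in liver (log2 6.32, adjusted p = 0.0113). The other 7 factors share no chromosome with a targeted gene.

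Several factors overlap another gene model. Hand2 overlaps Hand2os1 on the opposite strand over 3251 bases, most of its own length of 3.65 kb. Hand2os1, a noncoding RNA gene known to bear on Hand2, was at 7.65 ± 0.80 CPM in WT heart and 8.59 ± 0.45 CPM in QKO heart (log2 0.16 ± 0.09, adjusted p = 0.736), and at 1.18 ± 0.15 and 1.11 ± 0.22 CPM in liver. Mef2a overlaps Lysmd4 on the opposite strand over 76168 bases, at 8.78 ± 1.43 and 9.64 ± 1.70 CPM in WT and QKO heart, and the models Gm44667 and Gm44668 on its own strand. Gata6 overlaps 1010001N08Rik by 504 bases and Mef2d overlaps 1700113A16Rik by 531 bases, both on the opposite strand. Srf lies within Gm26904 on the opposite strand, at 0.74 ± 0.21 and 0.74 ± 0.15 CPM in heart, and holds Mir6976. None of these models was called in either tissue. These overlaps are of whole gene spans, introns included, and the overlap of exons was not measured. That of Mef2a with Lysmd4 is longer than the merged exons of Mef2a, which span 14681 bases. Reads from any exon bases shared by a pair on opposite strands cannot be told apart without the strand setting. The heart level of Hand2, 8.56 ± 1.46 CPM in WT, is close to that of Hand2os1. Gata4, Nkx2-5, Tbx5, Tbx20 and Mef2c overlap no other gene model.

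Several of the factors varied together between the hearts of a genotype. After removal of the genotype means, the 45 pairs had Pearson correlations of log2 CPM from -0.71 to 0.92 over 8 hearts, with a median of 0.42. The highest were Mef2a with Mef2d (0.92), Tbx20 with Mef2c (0.91), Gata4 with Mef2a (0.90) and Mef2a with Mef2c (0.82). Srf ran against the MEF2 genes, at -0.71 with Mef2d, -0.65 with Mef2c and -0.64 with Mef2a. In liver the 28 pairs of the 8 tested factors had a median of 0.17, and 1 pair, Tbx20 with Mef2a, was above 0.8 at 0.83. All points share their libraries, with their depth and ribosomal content, so these values describe the 8 libraries of a tissue.

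Among all genes tested in heart, the one most like each factor over the same 8 libraries was found by the same measure. It was Gm26789 for Gata4 (r = 0.988), Gm45221 for Gata6 (0.992), Lypla2 for Nkx2-5 (0.986), ENSMUSG00000093511 for Tbx5 (0.979) and Fabp1 for Tbx20 (0.995). For the others it was Zfp523 for Mef2a (0.992), Armcx1 for Mef2c (0.981), Pcdhgb2 for Mef2d (0.973), Atp2b1 for Hand2 (0.996) and Ccdc126 for Srf (0.982). Each was picked as the closest of 16974 genes over 8 libraries, and none of them belongs to the set. Fabp1, a fatty acid binding protein abundant in liver, averaged 4.22 CPM in heart, where the summed level of hepatocyte markers ran from 41.5 to 248 CPM.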

How the data were processed

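Per the labels, total RNA of liver and heart went into a stranded Illumina kit with ribosomal depletion, and 75 bp were read from both ends. Per the submitters' processing notes HISAT2, featureCounts, limma, cutadapt, FastQC, bcl2fastq and CASAVA were used with mm10, without versions, and the annotation release and strand setting are not given in the sources used here. The deposited values are raw counts per Ensembl gene. Of the 48709 identifiers, 48349 matched GENCODE M21 (GRCm38, the assembly of mm10) and 360 did not. All 16 columns were mapped by their labels.

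Each tissue had its own fit in edgeR 4.0.16 (R 4.3.3), tested by quasi-likelihood after filterByExpr by group and TMM scaling. Heart against liver and the interaction used 1 fit of 16 libraries. P-values were adjusted by Benjamini-Hochberg over all genes tested, with a threshold of 0.05. The fit was tested on simulated data with 200 changed genes per tissue. Correlations used log2 of CPM plus 0.5. Total counts of 37.9 to 72.6 M gave the factors 77 counts or more in every library, other than Nkx2-5 and Tbx5 in liver. Within 1 tissue, p-values measure the spread between separate animals. The fit of 16 libraries held both libraries of each animal without a term for the animal, which entered only as an alternative.

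The factors and the lists were chosen with earlier results of these data known. Genes outside the set were named by a rule: all called genes of a list, or else the 2 with the smallest p in that tissue, the models overlapping a factor, the targeted Msr genes, called genes between a factor and a targeted gene, and the most alike gene. Mhrt was named after its values were seen. Alternatives were DESeq2 1.42.0, limma-voom (limma 3.58.1), RLE and upper-quartile scaling, no filter, 1 CPM in 4 libraries, protein-coding genes alone, the replicate number or animal as a block, the animal series as a term, 1 fit of 16 libraries, a 2-fold threshold and left-out libraries. The fits within animal series 47 and 48, the lists in liver without WT livers 3 and 4 and the count ratios without 1 animal were added after seeing the data.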

Additional observations from a re-analysis of the deposited data

Results flagged for a closer look

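In 52 groups of 4 values (the factors by tissue and genotype, and the family shares), the highest or lowest library was set against the others by Dixon's ratio. Nkx2-5 and Tbx5 in liver, with counts near 0, are not among these groups. In 1 group a library stood apart, where chance alone gives about 1 in 20 groups. The groups are not independent, since the shares of a family add up to the whole. It was the share of Mef2a among the MEF2 genes in QKO liver. QKO liver 4 had 59.6%, against 51.4%, 50.9% and 50.9% in QKO livers 1 to 3, a ratio of 0.943 where the 95% critical value for 4 samples is lower. WT livers ran from 43.6% to 63.6%, so that the value lies within the WT range. The same liver had the highest Mef2a and Tbx20 of the 8 livers, at 32.2 and 4.32 CPM, and the highest summed level of sinusoidal endothelial markers, at 389 CPM. Their part in the share was not tested.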

How the results depend on the processing

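The counts of factors called were 0 in heart, 0 in liver and 0 in the interaction. For heart over liver, all 8 factors tested in both tissues were called, in WT and in QKO. These counts were the same in all their alternatives, and no factor crossed the threshold in any of them. Nkx2-5 and Tbx5 entered through the hearts alone and are left out of the counts for the interaction and for heart over liver. Heart over liver kept its direction for the 8 factors tested in both tissues, also where upper-quartile scaling moved the median of all genes to 0.16 in WT and 0.20 in QKO. Over all genes, the count called ran in heart from 16 to 108 (28 as reported, 60 by DESeq2, 102 without a filter, 108 in series 47 alone) and in liver from 9 to 50 (15 as reported, 50 by DESeq2). The replicate numbers were not taken to pair the genotypes, since not every correlation was over 0.1. Deviations of same-numbered WT and QKO libraries correlated at 0.12, 0.136, 0.0543 and 0.424 in heart and at 0.0712, -0.0057, -0.109 and 0.157 in liver. As a hint from the data and not from the design, 8 of 8 heart libraries, and 3 of 8 liver libraries, were most alike the library with their own number. With the replicate number as a block, 0 factors were called, and 50 genes in heart and 16 in liver, and Gata4 in liver had an unadjusted p of 0.0177 (adjusted p = 0.9999). In heart this block gave Gata4 and Mef2c unadjusted edgeR p of 0.0140 and 0.0203 (adjusted p = 0.446 and 0.486). The series as a term gave these genes 0.00761 and 0.0315 in heart (adjusted p = 0.409 and 0.529). With the animal as a block, the calls of these 8 factors for heart over liver stood.

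Uncalled differences changed sign, as log2 fold changes. The cause was not tested. Without both hearts numbered 4, Mef2a was at 0.0085, Mef2d at 0.015 and Srf at -0.028. In series 47 alone, Mef2a in heart was at 0.093, Mef2d at 0.052 and Srf at -0.098, and Mef2c in liver at 0.28. In series 48 alone, Hand2 in heart was at -0.18, and in liver Gata6 was at 0.15, Tbx20 at 0.073, Mef2d at -0.18 and Srf at -0.070. Without WT livers 3 and 4, Tbx20 was at 0.0063 and Mef2c at 0.39. The interaction of Mef2c was 0.0078 with upper-quartile scaling and 0.00063 without a filter. With single hearts left out, Mef2a ran from -0.15 to 0.046, Mef2d from -0.094 to 0.0094 and Srf from -0.046 to 0.095. With single livers left out, Gata6 ran from -0.082 to 0.062, Tbx20 from -0.26 to 0.081, Mef2a from -0.0099 to 0.16 and Mef2c from -0.31 to 0.096. With single animals left out, the interaction ran from -0.18 to 0.044 for Gata6, -0.19 to 0.18 for Tbx20, -0.30 to 0.044 for Mef2a, -0.32 to 0.16 for Mef2c, -0.076 to 0.22 for Hand2 and -1.27 to 2.54 for Nkx2-5, where it rests on 4 liver counts and its sign is not read. The Mef2a share, QKO minus WT in percentage points, ran from -0.45 to 1.11 in heart and from -5.28 to 1.39 in liver. Nkx2-5 and Tbx5 had too few liver counts for a difference between genotypes to be detectable there.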
